A study of Rattus norvegicus with 88 samples.

Results

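The miR-200 family comprises 5 miRNAs in the rat, rno-miR-200a, rno-miR-200b, rno-miR-429, rno-miR-200c and rno-miR-141, and its signal in the liver was followed from 2 weeks to 104 weeks of age. The 5 members were taken by name from the 677 miRNAs of an Agilent rat miRNA array, and all 5 were among the 314 miRNAs that were detected on at least 1 array. The arrays were 88 in number, with the liver RNA of 1 untreated F344 rat (the Fischer inbred strain) on each, from 45 females and 43 males. Each sex was sampled at 9 ages, at 2, 5, 6 and 8 weeks, then at 15 and 21 weeks, and again in later life at 52, 78 and 104 weeks, with 5 animals in each of the 18 groups except 4 in the males of 5 weeks and 4 in the males of 104 weeks. The labels give whole homogenized liver as the tissue, a piece of about 30 mg from each of the independent animals. Hepatocyte miR-122, miR-192 and miR-194 had a summed signal between 399 and 1388 times the 75th percentile of an array on all arrays, which fits the labelled tissue.

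In liver, the miR-200 family is known as a marker of epithelial cells, and in the adult organ it is found mainly in the cells that line the bile ducts. Its members act against ZEB1 and ZEB2, repressors of E-cadherin, and so help to keep cells in an epithelial state. They are made from a pair of primary transcripts, and the transcript on 1 chromosome holds miR-200b, miR-200a and miR-429, whereas the other holds miR-200c and miR-141. By seed the family is grouped in another way, with miR-200b, miR-200c and miR-429 in one group and miR-200a and miR-141 in the other.

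The mature sequences of both miRNAs of the second cluster are shown, 1 from each seed group, with the seed (bases 2 to 8 from the 5′ end) in capitals. They are the RefSeq entries on the GRCr8 build, and those of rno-miR-200a, rno-miR-200b and rno-miR-429 are named only.
rno-miR-200c-3p: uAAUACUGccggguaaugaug
rno-miR-141-3p: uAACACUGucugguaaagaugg
The seeds differed at 1 base, U4C (the base of rno-miR-200c-3p, its position counted from 1 at the 5′ end, and the base of rno-miR-141-3p).

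The hairpin genes of the first cluster lie within 1908 bases on the minus strand of chromosome 5 (GRCr8), with Mir429 at chr5:171929682-171929766, Mir200a at chr5:171930717-171930805 and Mir200b at chr5:171931495-171931589. In the RefSeq annotation these 3 hairpins lie inside the span of the protein-coding gene Ttll10 and of a long non-coding RNA gene. Those of the second cluster lie within 509 bases on the minus strand of chromosome 4, with Mir141 at chr4:159209525-159209618 and Mir200c at chr4:159209965-159210033. No other annotated gene overlaps these 2, and Phb2 and Ptpn6 are the nearest protein-coding genes on either side.

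All values given here are normalized signals, the total gene signal of a miRNA divided by the 75th percentile over the 314 expressed miRNAs of the same array, so that 1 stands for that percentile. rno-miR-200a and rno-miR-200b were detected on all 88 arrays, rno-miR-429 on 76, rno-miR-141 on 80 and rno-miR-200c on 10. The median measurement error that the scanner software gave for a detected signal was 9.1% of the signal for rno-miR-200a, 9.4% for rno-miR-200b, 13.3% for rno-miR-429, 16.1% for rno-miR-141 and 27.9% for rno-miR-200c. The star strands of miR-200a, miR-200b, miR-200c and miR-141 were on the array and were detected on none of the 88 arrays, and that of miR-429 was not on the array. Between 134 and 255 miRNAs were detected per array, and the 75th percentile ranged from 28.1 to 289. The number of animals limits the precision of every group value.

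rno-miR-200b, which shares its transcript with miR-200a and miR-429 and its seed group with miR-200c, had the widest range of the always-detected members, from 0.169 to 2.13. At 2 weeks the 5 females had values of 1.54, 1.55, 1.87, 1.96 and 2.02, and the 5 males had 1.15, 1.19, 1.22, 1.22 and 1.72. At 5 weeks the values were 1.04, 1.08, 1.37, 1.43 and 1.47 in females and 1.26, 1.77, 1.91 and 2.13 in males. At 6 weeks they were 1.003, 1.15, 1.37, 1.42 and 1.47 in females and 0.945, 1.4, 1.64, 1.66 and 1.85 in males. In these 3 youngest groups the sexes overlapped at each age, and 1 array alone, of a 6-week male, was below 1. At 8 weeks the females had 0.592, 0.599, 0.763, 0.772 and 0.787, whereas the males had 1.18, 1.33, 1.43, 1.59 and 1.65. At 15 weeks the females had 0.174, 0.204, 0.353, 0.416 and 0.469, and the males 0.514, 0.923, 0.948, 1.03 and 1.09. At both of these ages every male was above every female. At 21 weeks the values were 0.266, 0.298, 0.486, 0.53 and 0.679 in females and 0.402, 0.512, 0.577, 0.898 and 1.72 in males. At 52 weeks they were 0.183, 0.306, 0.365, 0.393 and 0.521 in females and 0.327, 0.407, 0.439, 0.57 and 0.68 in males. The sexes overlapped again, and the highest of the 21-week males stood within the range of the 6-week males. At 78 weeks females had 0.456, 0.501, 0.569, 0.672 and 1, and males had 0.272, 0.652, 0.874, 1.01 and 1.22. At 104 weeks females had 0.169, 0.233, 0.504, 0.664 and 0.874, and males had 0.669, 0.682, 1.17 and 1.49. The spread among the 104-week females was wide and included the lowest value of any array, and the sexes overlapped at both ages.

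rno-miR-200a followed a similar course in a smaller range, from 0.21 to 1.68. Its values at 2 weeks were 1, 1.08, 1.17, 1.25 and 1.41 in females and 0.744, 0.937, 0.969, 1 and 1.1 in males. Those at 5 weeks were 0.785, 0.909, 1.14, 1.16 and 1.38 in females and 1.18, 1.35, 1.36 and 1.38 in males. Those at 6 weeks were 0.678, 0.843, 1.03, 1.18 and 1.46 in females and 0.992, 1, 1, 1.26 and 1.46 in males. The sexes overlapped at these 3 ages. For 8 weeks the values were 0.59, 0.631, 0.653, 0.729 and 0.732 in females and 0.937, 0.977, 1.01, 1.16 and 1.27 in males, without overlap. For 15 weeks they were 0.331, 0.433, 0.474, 0.502 and 0.605 in females and 0.41, 0.645, 0.655, 0.718 and 0.803 in males, and for 21 weeks 0.422, 0.43, 0.551, 0.597 and 0.798 in females and 0.334, 0.445, 0.581, 0.745 and 1.68 in males. From 15 weeks the sexes overlapped at every age. For 52 weeks the females had 0.31, 0.466, 0.493, 0.533 and 0.711 and the males 0.377, 0.422, 0.464, 0.486 and 0.706. For 78 weeks the females had 0.612, 0.658, 0.667, 1 and 1.17 and the males 0.263, 0.699, 0.752, 0.925 and 1.02. For 104 weeks the females had 0.21, 0.349, 0.616, 0.646 and 0.973 and the males 0.709, 0.795, 1.25 and 1.67. A value of exactly 1 marks an array on which the member itself stood at the 75th percentile, as rno-miR-200a did on 5 arrays and rno-miR-200b on 1.

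rno-miR-429, the third miRNA of the first cluster, was detected in every animal of 2 to 8 weeks and was lost from single animals afterwards. Its highest value, 0.725, was that of a 2-week female. In females the values were 0.61 to 0.725 at 2 weeks (median 0.704), 0.35 to 0.534 at 5 weeks (median 0.52), 0.251 to 0.569 at 6 weeks (median 0.498) and 0.241 to 0.326 at 8 weeks (median 0.295). At 15 weeks 3 females had 0.112, 0.112 and 0.175 and 2 were undetected, and at 21 weeks the 5 females had 0.0772, 0.121, 0.132, 0.174 and 0.244. No female of 15 or 21 weeks reached the lowest female of 5 or 6 weeks. In males the values were 0.534 to 0.692 at 2 weeks (median 0.558), 0.416 to 0.662 at 5 weeks (median 0.638), 0.303 to 0.595 at 6 weeks (median 0.556) and 0.278 to 0.48 at 8 weeks (median 0.406). At 15 weeks 4 males had 0.164, 0.177, 0.2 and 0.207 and 1 was undetected, and at 21 weeks 3 males had 0.12, 0.167 and 0.666 and 2 were undetected. The array with 0.666 was the only one of these 10 males that reached the level of the 9 males of 5 and 6 weeks. At 52 weeks 4 females had 0.0841, 0.11, 0.13 and 0.141 with 1 undetected, and 2 males had 0.1 and 0.274 with 3 undetected. At 78 weeks the 5 females had 0.151, 0.192, 0.224, 0.226 and 0.388, and 4 males had 0.188, 0.313, 0.368 and 0.417 with 1 undetected. At 104 weeks 3 females had 0.161, 0.317 and 0.399 with 2 undetected, and the 4 males had 0.255, 0.265, 0.419 and 0.579.

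**Figure D1:**
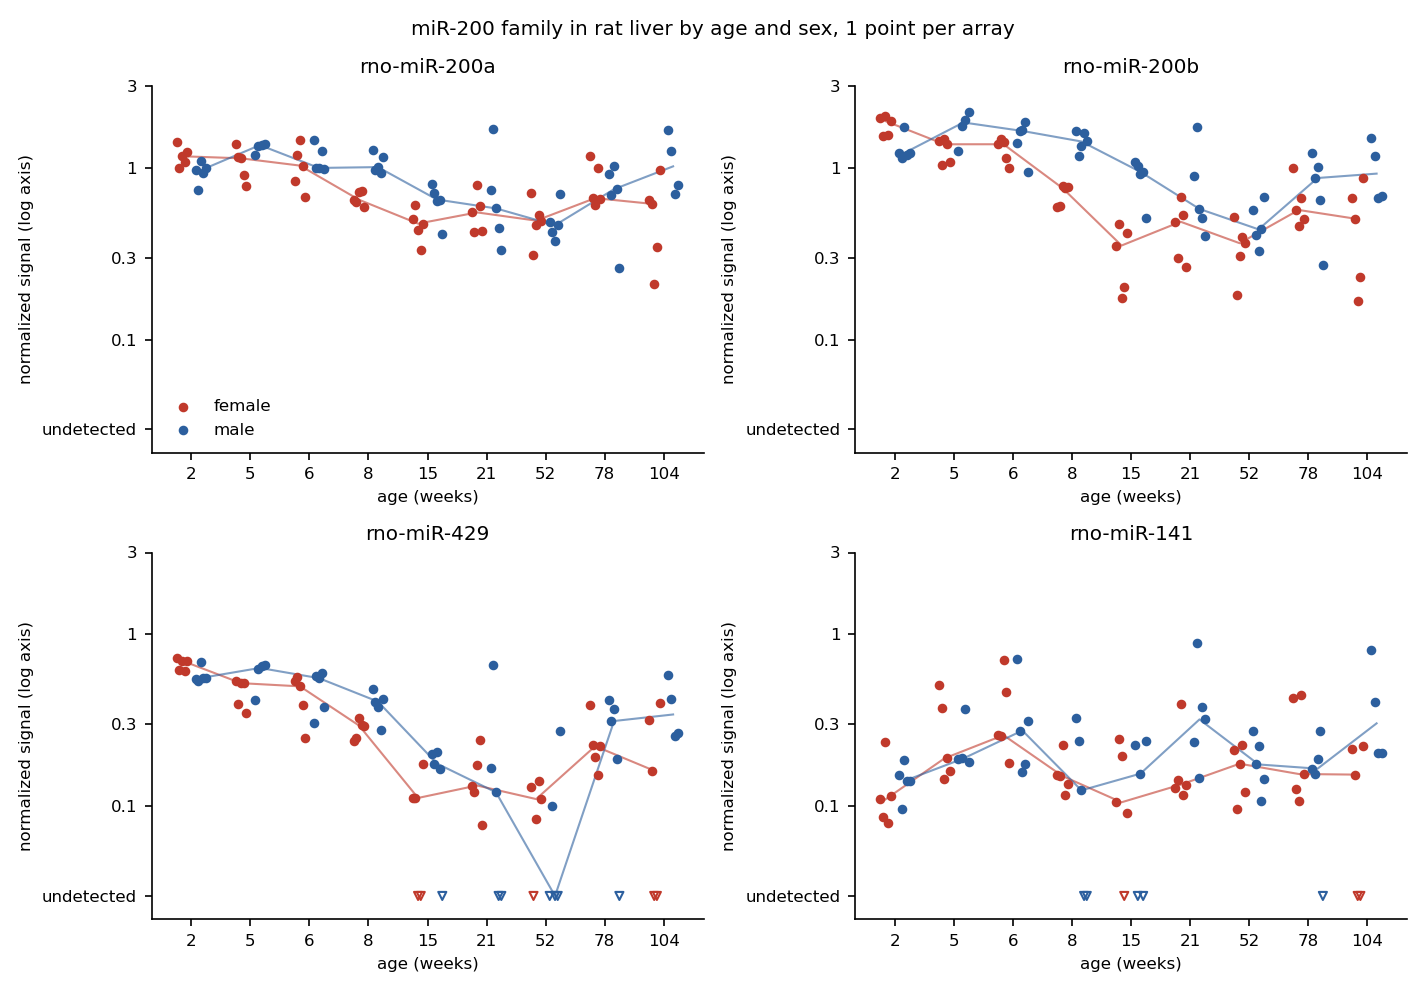
Normalized signal of 4 members of the family (log axis) against age in weeks, with 1 point for each array, females in red and males in blue, open triangles at the foot for arrays on which the miRNA was undetected, and a line through the group medians. rno-miR-200a, rno-miR-200b and rno-miR-429 are high from 2 to 6 weeks and low from 15 to 52 weeks in both sexes, and rno-miR-141 is not at its highest at 2 weeks.

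The clearest change in the family was a fall of the first cluster between 5 to 6 and 15 to 21 weeks, the span from puberty to the grown adult. These ages were chosen for the contrast with earlier results of these data known, so its p-values are not those of a contrast set beforehand. In females, rno-miR-200a fell with a log2 difference of -1.04 ± 0.21 (SE, 2.06-fold, limma adjusted p = 4.64e-05), rno-miR-200b with -1.83 ± 0.23 (3.55-fold, adjusted p = 1.57e-09) and rno-miR-429 with -2.41 ± 0.60 (5.31-fold, adjusted p = 0.00118). In males, rno-miR-200a fell with a log2 difference of -0.94 ± 0.21 (1.92-fold, adjusted p = 0.000372), rno-miR-200b with -1.01 ± 0.24 (2.02-fold, adjusted p = 0.00065) and rno-miR-429 with -2.56 ± 0.62 (5.89-fold, adjusted p = 0.00093). Relative to the median of the 103 miRNAs detected on every array, which moved by 0.23 in females and 0.10 in males, the differences of these members were -1.27, -2.06 and -2.64 in females and -1.04, -1.12 and -2.66 in males. The fold of rno-miR-429 depends on the value put in for its undetected arrays, which were 2 of 10 in the older females and 3 of 10 in the older males, whereas none was undetected at 5 and 6 weeks in either sex. With undetected values raised to the lowest detected value of their array the difference of rno-miR-429 was -2.07 in females and -1.67 in males, and it was called in both. Its probe sequences, read singly over all arrays of these ages, with signals at or below 0 raised to the lowest positive one of the sequence, gave -1.52 and -1.49 in females and -1.12 and -0.99 in males. Of all 314 miRNAs, 8 (2.55%) fell in females and 12 (3.82%) in males in this comparison, and 5 fell in both sexes, 3 of which were the members of the first cluster. Chosen for naming after their values were seen, the other 2 were rno-miR-1949 and rno-miR-335. The members of the second cluster did not pass the test. rno-miR-141 had a difference of -1.24 ± 0.56 in females (adjusted p = 0.112) and -0.76 ± 0.58 in males (adjusted p = 0.458), and rno-miR-200c had -0.02 ± 0.44 and 0.27 ± 0.45. Those of rno-miR-200c rest mostly on the value put in for its undetected arrays and say little of its change. In females rno-miR-141 had an unadjusted p of 0.0311. It was called there with the percentile over the always-detected miRNAs (-1.46, adjusted p = 0.0247), with the raw minimum put in for undetected signals before scaling (-1.14, adjusted p = 0.0323) and with undetected values raised to the lowest of their array (-1.05, adjusted p = 0.0118). Whether the clusters differed in their change was not tested. The median difference over the 5 members was -1.24 in females and -0.94 in males, and that over all 314 miRNAs was 0 in both sexes.

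For rno-miR-200b, the 10 females of 15 and 21 weeks lay between 0.174 and 0.679 and the 10 females of 5 and 6 weeks between 1.003 and 1.47, without overlap. In males the 10 older arrays lay between 0.402 and 1.72 and the 9 younger ones between 0.945 and 2.13, and 6 of the 10 older ones were below every younger one. For rno-miR-200a, 9 of 10 older females and 9 of 10 older males were below every younger animal of their sex. Within single scans, which served as the batch, the fall of all 3 members was found in each of the 3 scans that held both spans of a sex. Some of these scans held 1 array of a span. The difference ranged from -2.12 to -1.67 in females and from -1.02 to -0.30 in males for rno-miR-200b, and from -1.19 to -0.95 and from -1.11 to -0.27 for rno-miR-200a. The smallest difference in males came from scan 4, which held the 21-week male with the highest values. With normexp background correction of the spots, which adds an offset to every signal, 1 member was called in females (rno-miR-200b) and none in males, and with the 75th percentile over all 677 miRNAs 1 was called in males (rno-miR-429).

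Hepatocyte miR-192 and miR-194 rose between the same ages in both sexes, while miR-122 did not pass the test, and their part in the fall of the family was not tested. In bulk liver, fewer cells of a type and less RNA per cell cannot be told apart. Nor do signals from whole liver show which cells, of the bile ducts or others, held the family. None of the miRNAs listed for pancreas, skeletal muscle, erythroid cells, leukocytes, endothelium, or stellate and smooth muscle cells passed the test in this comparison in either sex (3, 5, 2, 4, 2 and 5 miRNAs tested).

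**Figure D2:**
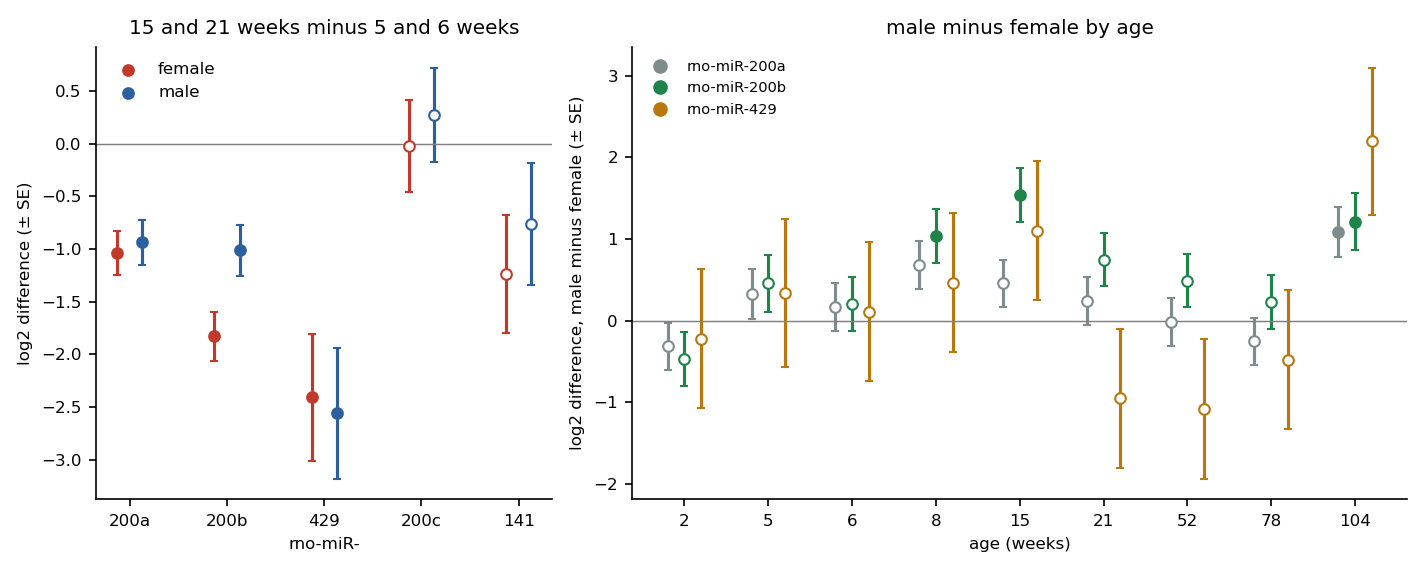
Left, log2 difference of the 5 members between 15 and 21 weeks and 5 and 6 weeks in females and males, and right, log2 difference between males and females at each age for the first cluster. Points are limma estimates, bars are ± 1 SE, and filled points passed an adjusted p under 0.05 with at least 1.5-fold. All 3 members of the first cluster have filled points below 0 on the left, and on the right rno-miR-200b has filled points at 8, 15 and 104 weeks and rno-miR-200a at 104 weeks.

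The same 3 members differed among the 9 ages in both sexes when all ages were tested together with limma's F test and at least 1 contrast of 1.5-fold. In females the adjusted p was 1.88e-05 for rno-miR-200a, 3.9e-09 for rno-miR-200b and 0.000136 for rno-miR-429, and in males it was 0.00109, 7.17e-05 and 0.00129. With normexp rno-miR-200b alone of the 3 kept its call in males, and the adjusted p was 0.0357 for rno-miR-200a, which was no longer called, and 0.0602 for rno-miR-429. The count of members called with normexp was 4 in females and 2 in males, so that the second cluster was among those called in both sexes. By this test 57.3% of all miRNAs differed with age in females and 54.1% in males, so that 3 of 5 members is close to the background. rno-miR-141 had adjusted p values of 0.0915 and 0.105 and rno-miR-200c of 0.408 and 0.644. Of the 36 contrasts between ages, 18 passed for rno-miR-200b in females and 10 in males, 13 and 8 for rno-miR-200a, 10 and 7 for rno-miR-429, and 1 and 0 for rno-miR-141.

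In order of their geometric means, the levels of rno-miR-200b in females were 1.78 at 2 weeks, 1.27 at 6 weeks, 1.27 at 5 weeks, 0.697 at 8 weeks, 0.614 at 78 weeks, 0.425 at 21 weeks, 0.409 at 104 weeks, 0.334 at 52 weeks and 0.3 at 15 weeks. In males the order was 1.73 at 5 weeks, 1.46 at 6 weeks, 1.42 at 8 weeks, 1.29 at 2 weeks, 0.945 at 104 weeks, 0.872 at 15 weeks, 0.718 at 78 weeks, 0.713 at 21 weeks and 0.469 at 52 weeks. No pair of neighbours in either order differed past the test, and the nearest to it was the step between 5 and 8 weeks in females (adjusted p = 0.0645). The orders of rno-miR-200a and rno-miR-429 likewise held no neighbours that passed it. For rno-miR-200a, the highest and lowest geometric means were 1.17 at 2 weeks and 0.46 at 15 weeks in females, and 1.32 at 5 weeks and 0.48 at 52 weeks in males. The SDs within groups on the log2 scale ranged from 0.10 (males of 5 weeks) to 0.89 (males of 21 weeks) for rno-miR-200a and from 0.19 (females of 2 weeks) to 1.01 (females of 104 weeks) for rno-miR-200b.

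Comparisons with the 2-week livers depended on the scaling. The 75th percentile moved with age, and the median difference of the 103 miRNAs detected on every array, adults of 5 to 21 weeks minus 2 weeks, was 0.52 in females and 0.99 in males. In females, rno-miR-200a was lower in adults, with a log2 difference of -0.73 ± 0.28 (adjusted p = 0.0268), as was rno-miR-200b with -1.39 ± 0.41 (adjusted p = 0.00342), and rno-miR-429 had -1.69 ± 0.74 (adjusted p = 0.0513). These were 2 of 5 members, against 16.9% of all miRNAs that were lower in adult females. The call of rno-miR-200a was lost when 1 of 3 arrays of 2-week females was left out (replicate 1, 4 or 6, adjusted p of 0.0744, 0.0509 and 0.0581), with normexp (-0.54, under 1.5-fold) and without the arrays of the later design file (-0.63, adjusted p = 0.173). With the percentile over all 677 miRNAs neither member was called in females, with 0.038 for rno-miR-200a and -0.62 for rno-miR-200b (adjusted p of 1 and 0.339). In males none of the 5 members was called by limma, and none had an unadjusted p under 0.05, with -0.07 ± 0.30 for rno-miR-200a and -0.15 ± 0.32 for rno-miR-200b, against 19.7% of all miRNAs lower in adult males. Relative to the median of the always-detected miRNAs, the differences were -1.25 for rno-miR-200a and -1.91 for rno-miR-200b in females, and -1.05 and -1.14 in males. With the 75th percentile taken over those always-detected miRNAs, 3 members were called in males, with differences of -1.18 for rno-miR-200a, -1.27 for rno-miR-200b and -2.33 for rno-miR-429. With the percentile taken over all 677 miRNAs, rno-miR-200a and rno-miR-200b changed sign in males, to 1.13 and 1.04.

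Between 2 weeks and the old ages of 52 to 104 weeks, rno-miR-200a, rno-miR-200b and rno-miR-429 were lower in old females, with log2 differences of -1.03 ± 0.30, -2.02 ± 0.43 and -2.63 ± 0.78 (adjusted p of 0.00262, 7.52e-05 and 0.00334), 3 of 5 members against 20.4% of all miRNAs. With the percentile over all 677 miRNAs all 3 calls were lost, with -0.18, -1.17 and -2.13 (adjusted p of 0.764, 0.0596 and 0.0587), and with normexp rno-miR-200b alone was called, with -1.01. In old males rno-miR-200b was lower with -0.95 ± 0.34 (adjusted p = 0.0162) and rno-miR-429 with -2.30 ± 0.96 (adjusted p = 0.0394), 2 of 5 against 20.1%. Without 2-week male 3 the rno-miR-200b value was -0.84 (adjusted p = 0.0553), and the rno-miR-429 call was lost when any of the 5 males of 2 weeks, of 3 males of 52 weeks (replicates 1, 6 and 7) or 78-week male 6 was left out. Both of these calls in old males were lost with normexp, without the arrays of the later design file and with the percentile over all 677 miRNAs. Under that percentile the difference of rno-miR-200b in males was 0.20. Between adult and old livers, rno-miR-200b was lower in old males with a log2 difference of -0.79 ± 0.22 (1.73-fold, adjusted p = 0.0112), 1 of 5 members against 1.27% of all miRNAs. This call was lost with normexp (-0.32, adjusted p = 0.0712), with the percentile over all 677 miRNAs (-0.84, adjusted p = 0.098) and without the arrays of the later design file (-0.66, adjusted p = 0.212). In females none of the members was called by limma against 2.87% of all miRNAs that were lower, with 1 at an unadjusted p under 0.05, rno-miR-200b with -0.63 ± 0.27 (adjusted p = 0.157).

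Of the members, rno-miR-200b differed most often between the sexes when they were compared age by age. It was higher in males at 8 weeks by 1.03 ± 0.33 on the log2 scale (2.04-fold, adjusted p = 0.0408), when 0.637% of all miRNAs were higher in males. At 15 weeks it was higher in males by 1.54 ± 0.33 (2.9-fold, adjusted p = 0.000527, background 3.18%). At 104 weeks it was higher in males by 1.21 ± 0.35 (2.31-fold, adjusted p = 0.0238), together with rno-miR-200a by 1.09 ± 0.31 (2.12-fold, adjusted p = 0.0231), against 4.14% of all miRNAs. These were the 4 called of the 45 combinations of member and age, all with the male higher, and over all 2826 combinations of miRNA and age 2.87% were called with the male higher. rno-miR-429 was not called at any age, with 1.10 ± 0.85 at 15 weeks and 2.19 ± 0.91 at 104 weeks (adjusted p of 0.519 and 0.245), and neither were rno-miR-141 (2.42 ± 0.84 at 104 weeks, adjusted p = 0.0991) and rno-miR-200c.

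Within scans, the 15-week difference of rno-miR-200b ranged from 1.19 to 2.29 in 3 scans, each with only 1 or 2 animals of a sex. Over all scans it stayed called with any of the 88 arrays left out. The 8-week call was lost when any of 8 of the 10 animals of that age was left out, with an adjusted p of up to 0.106. The 8-week value was 0.902 and 1.30 in the 2 scans that held both sexes, each with 1 male. With normexp and without the arrays of the later design file, the 15-week call alone of the 4 was kept, with 0.65 and 1.63. With the percentile over all 677 miRNAs the 104-week differences were 0.60 for rno-miR-200a and 0.72 for rno-miR-200b (adjusted p = 0.781 for both), and by the methods' t-test on the animals of that age alone neither was called (adjusted p = 0.987 for both). Both 104-week calls were lost when female 5, female 7, male 2 or male 3 was left out, and without female 5 the values were 0.78 for rno-miR-200a and 0.89 for rno-miR-200b (adjusted p = 0.183 for both). In the 3 scans with both sexes of 104 weeks, each with 1 or 2 animals of a sex, the differences ranged from 0.24 to 1.02 for rno-miR-200a and from 0.21 to 1.52 for rno-miR-200b.

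At 104 weeks, 4 of the 7 other epithelial miRNAs that were listed were also higher in males, against 4.14% of all miRNAs. The log2 differences were 0.96 ± 0.20 for miR-31, 3.62 ± 0.70 for miR-96, 1.95 ± 0.58 for miR-182 and 4.18 ± 0.85 for miR-183 (limma adjusted p of 0.000441, 0.000155, 0.0309 and 0.000346). The authors place miR-96, miR-182 and miR-183 in a single cluster, so these are not separate observations. At this age miR-182 was detected in males 2, 4 and 5 alone, at 0.057, 0.0976 and 0.0704. miR-183 was detected in all 4 males, at 0.154, 0.234, 0.248 and 0.249, and in none of the 5 females. Among females, miR-96 was undetected in female 5 and was 0.22, 0.267 and 0.358 in females 7, 2 and 1, in the order of their rno-miR-200b (0.169, 0.233, 0.504 and 0.664). Female 8 and the males departed from that order. Males 2 and 3, with the highest rno-miR-200b of the males at 1.49 and 1.17, had their lowest miR-96 at 1.65 and 1.34. Males 4 and 5, with 0.669 and 0.682 of rno-miR-200b, had 1.99 and 2.09 of miR-96. Female 8, with the highest rno-miR-200b of the females at 0.874, had 0.229 of miR-96. At 8 weeks none of the 7 was called higher in males and 2 were called lower, miR-183 and miR-203, with log2 differences of -2.90 ± 0.80 and -1.28 ± 0.38 (adjusted p of 0.0159 and 0.0243), against 4.46% of all miRNAs that were lower in males at that age. At 15 weeks 1 of the 7, miR-375, which is also made in the endocrine pancreas, was lower in males with -3.76 ± 0.81 (adjusted p = 0.00056), against 6.05% of all miRNAs. Of the 2 erythroid miRNAs, miR-451 was higher in males at 8 and at 15 weeks, and no other listed marker of blood, vessel, muscle or stellate cells was called at these 3 ages. The part of these cells in the differences of rno-miR-200a and rno-miR-200b was not tested. Between 5 to 6 and 15 to 21 weeks, miR-203 rose in both sexes, by 1.58 ± 0.27 in females and 2.05 ± 0.28 in males (adjusted p of 3.14e-06 and 9.95e-09), and the other 6 did not pass the test. In adult against 2-week livers, miR-31 and miR-96 rose in both sexes, miR-183 and miR-203 rose in females, and miR-375 fell in both. Of all miRNAs 22.9% rose in females and 29.9% in males in this comparison, in which the always-detected miRNAs moved by the medians of 0.52 and 0.99 given above, against 0.97 and 1.59 for miR-31.

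Whether the fall of rno-miR-200b with maturation differed between the sexes was tested as an interaction. The fall was larger in females by 0.81 ± 0.33 on the log2 scale, with a limma adjusted p of 0.175. None of the 5 members was called, with 1 at an unadjusted p under 0.05, and 5.73% of all miRNAs were called. With the scan as a block the difference was 1.07 and was called (adjusted p = 0.0273). For the change from 15 to 21 weeks to the old ages none of the members was called, none had an unadjusted p under 0.05, and 0.318% of all miRNAs were called.

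rno-miR-200a and rno-miR-200b come from the same primary transcript, and their difference on an array does not depend on the scaling of that array. At 2 weeks the log2 difference, rno-miR-200b minus rno-miR-200a, was 0.60 ± 0.12 (SD, n = 5) in females and 0.45 ± 0.17 (n = 5) in males. It then parted by sex. At 15 weeks it was -0.62 ± 0.43 in females, from -1.31 to -0.19, and 0.47 ± 0.09 in males, from 0.33 to 0.53. At 21 weeks it was -0.36 ± 0.23 in females and 0.15 ± 0.13 in males, at 52 weeks -0.54 ± 0.14 and -0.03 ± 0.16, and at 78 weeks -0.37 ± 0.15 and 0.11 ± 0.25 (n = 5 in each). At these 4 ages every male was above every female. At 104 weeks the sexes overlapped, with -0.26 ± 0.23 in females and -0.14 ± 0.06 in males (n = 5 and 4), as they did from 2 to 8 weeks. Among the other 101 miRNAs detected on every array, the difference to rno-miR-200a set every male above every female in 0% at 15 weeks, 0% at 21 weeks, 0.99% at 52 weeks and 0% at 78 weeks. The comparison was chosen after the values were seen and was not tested, and a pair that moves together on an array has a small spread in its difference.

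**Figure D3:**
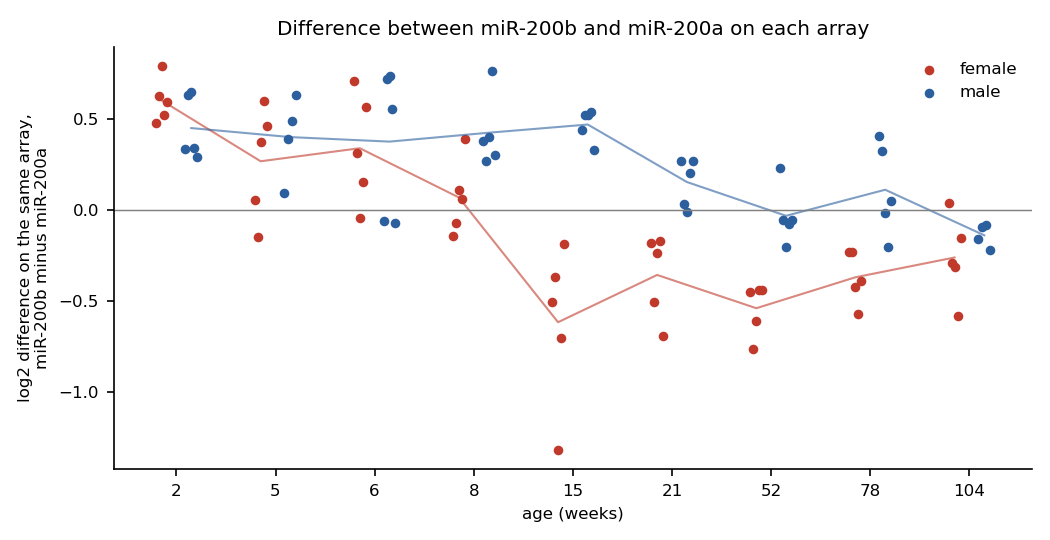
Log2 difference between rno-miR-200b and rno-miR-200a on the same array, 1 point for each of the 88 arrays, against age in weeks, with females in red, males in blue and lines through the group means. From 15 to 78 weeks all male points lie above all female points of the same age, and before and after that the sexes overlap.

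The difference of rno-miR-429 to rno-miR-200b on arrays that detected both had group means between -2.42 and -1.16 on the log2 scale. At 8 weeks it was -1.31 ± 0.06 in females and -1.88 ± 0.37 in males (SD, n = 5 each), without overlap. This separation was seen in the values and was not tested, and how many other miRNAs part the sexes in this way was not counted. At 15 weeks it was -1.66 ± 0.41 (n = 3) and -2.42 ± 0.18 (n = 4), but the arrays without rno-miR-429 (2 females and 1 male) have no value, so the sexes cannot be compared there. The same holds at 21 weeks (5 females and 3 males with a value), 52 weeks (4 and 2), 78 weeks (5 and 4) and 104 weeks (3 and 4). At 2, 5 and 6 weeks every array had a value and the sexes overlapped, and the male mean was the higher one at 2 weeks. At 104 weeks the means over the arrays with a value were -1.28 ± 0.32 in females (n = 3) and -1.40 ± 0.06 in males (n = 4).

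rno-miR-141, of the second cluster, was detected in all 10 animals of 2 weeks but was not highest there. The females of that age had 0.0796, 0.0864, 0.11, 0.115 and 0.237, and the males 0.0965, 0.14, 0.14, 0.153 and 0.185. At 6 weeks the values were 0.178, 0.257, 0.259, 0.461 and 0.71 in females and 0.157, 0.175, 0.276, 0.311 and 0.715 in males. Of these 10 animals, 7 were above every 2-week animal of their sex. The range narrowed to 0.116 to 0.226 in females of 8 weeks, while 3 males had 0.124, 0.24 and 0.327 and 2 were undetected. From 15 weeks the groups spread widely, and their detected values lay between 0.0911 and 0.886, with undetected arrays in females of 15 weeks (1) and 104 weeks (2) and in males of 15 weeks (2) and 78 weeks (1). The highest values were 0.886 in 21-week male 3 and 0.816 in 104-week male 2, and no other animal from 15 weeks on exceeded 0.444. Under the scaling used throughout, rno-miR-141 passed no test by age or sex except 1 of the 36 age contrasts in females.

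rno-miR-200c was near the limit of the array. It was detected on 10 arrays, at 0.297 in 21-week male 3, 0.137 and 0.134 in 78-week females 1 and 4, 0.133 and 0.0737 in 6-week females 4 and 2, 0.12 in 21-week female 3, 0.0791 in 104-week male 2, 0.0707 in 15-week female 2, 0.051 in 104-week female 8 and 0.0345 in 5-week male 6. It was undetected on the other 78 arrays, among them all 10 of 2 weeks. Of the 10 spots for either of its probe sequences, at least 5 were well above background on 0 arrays for 1 sequence and on 3 arrays for the other.

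Some of the arrays with rno-miR-200c also held pancreatic miRNAs. miR-216a, a miRNA of the exocrine pancreas, was detected on 16 of the 88 arrays and miR-217 on 5, and rno-miR-200c was detected on 6 of the 16, including all 5 with miR-217, and on 4 of the other 72. The 21-week male 3 that was high for the whole family (1.68 for rno-miR-200a, 1.72 for rno-miR-200b, 0.666 for rno-miR-429 and 0.886 for rno-miR-141) had 0.827 of miR-216a, 0.673 of miR-217 and 0.803 of miR-375. The 78-week females 1 and 4 had 0.892 and 0.873 of miR-216a, and the 104-week male 2 had neither miR-216a nor miR-217. The summed level of miR-216a, miR-217 and miR-375 was between 0 and 0.638 in females and between 0 and 0.195 in males of 5 and 6 weeks, and between 0.253 and 1.41 in females and 0 and 2.3 in males of 15 and 21 weeks. The part of pancreatic RNA in the levels of the family was not tested. Without the 16 arrays, the fall between 5 to 6 and 15 to 21 weeks had log2 differences of -1.13, -2.15 and -2.70 in females and -1.16, -1.21 and -3.07 in males for rno-miR-200a, rno-miR-200b and rno-miR-429. All 6 differences were larger than with these arrays and were called, and the 15-week difference of rno-miR-200b between the sexes was 1.62 (adjusted p = 0.00111). Its 8-week difference was 0.98 and was no longer called (adjusted p = 0.0857).

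**Figure D4:**
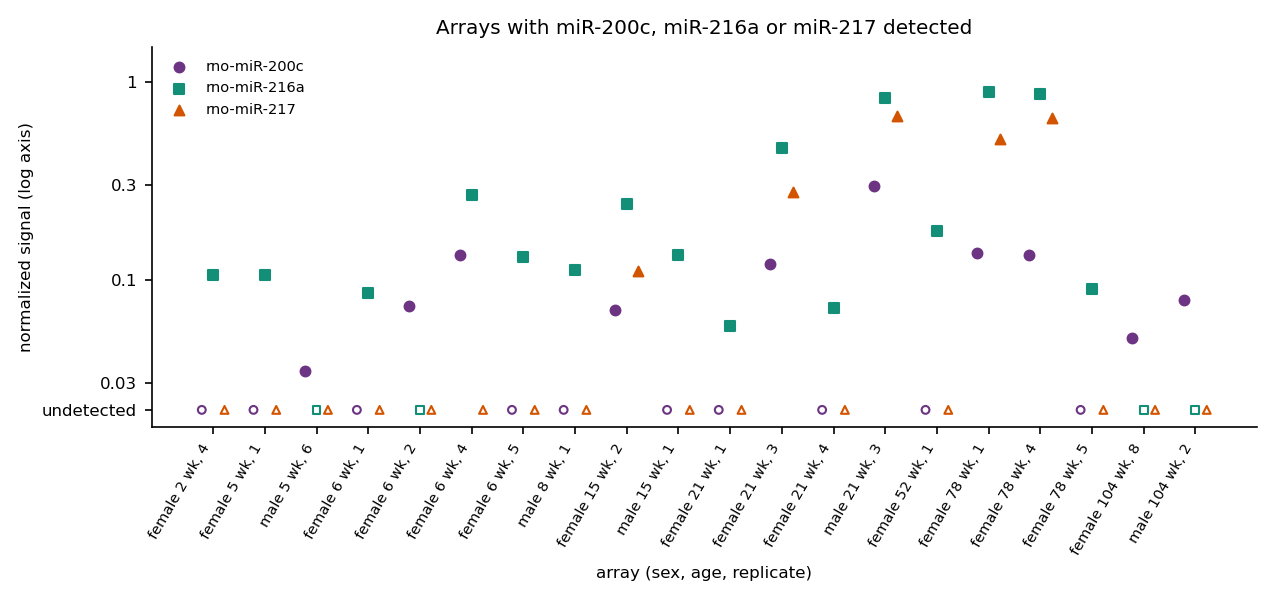
Normalized signal (log axis) of rno-miR-200c, miR-216a and miR-217 on the 20 arrays on which at least 1 of them was detected, ordered by age and sex, with open symbols at the foot for undetected miRNAs. All 5 arrays with miR-217 also have rno-miR-200c, and 4 arrays have rno-miR-200c without either pancreatic miRNA.

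Between animals of the same age and sex, the members of the first cluster moved together. rno-miR-200c, detected on too few arrays, was left out. Over the 88 arrays, the deviations of rno-miR-200a and rno-miR-200b from their group means had a Pearson r of 0.89 and a Spearman rho of 0.84 (two-sided permutation test within groups, adjusted p = 3e-05 and 1.5e-05 over 3 pairs, each resting on the smallest p that 100000 permutations can give, 1e-05). Without the 2 arrays farthest from the median r was 0.87, and within the 4 scans with over 1 array it was 0.78 to 0.94. Across the clusters r was lower over all 88 arrays, a difference that was not tested and that goes with a larger measurement error of rno-miR-141. For rno-miR-200a and rno-miR-141, of a shared seed group, r was 0.56 and rho 0.55 (adjusted p = 3e-05 and 1.5e-05), 0.50 without the 2 farthest arrays and 0.39 to 0.67 within scans (0.43 to 0.79 over arrays that detected rno-miR-141). For rno-miR-200b and rno-miR-141 r was 0.45 and rho 0.38 (permutation test, adjusted p = 0.00101 and 0.0017), 0.34 without the 2 farthest arrays and 0.17 to 0.53 within scans. Over the 80 arrays that detected rno-miR-141, r of this last pair was 0.36 (permutation test, adjusted p = 0.00745), and within scans it ranged from -0.10 in scan 5 (n = 14) to 0.59 in scan 3 (n = 29), so that the relation did not hold within every scan. Without the 16 arrays with pancreatic miRNAs, these values were 0.88, 0.49 and 0.37 over 72 arrays, and for the last pair rho was 0.25 (adjusted p = 0.0917). With rno-miR-429, over arrays that detected both miRNAs and as pairs chosen after the detection counts were seen, r was 0.82 for rno-miR-200b and 0.68 for rno-miR-200a (n = 76) and 0.30 for rno-miR-141 (n = 72, permutation test, adjusted p = 0.0858).

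**Figure D5:**
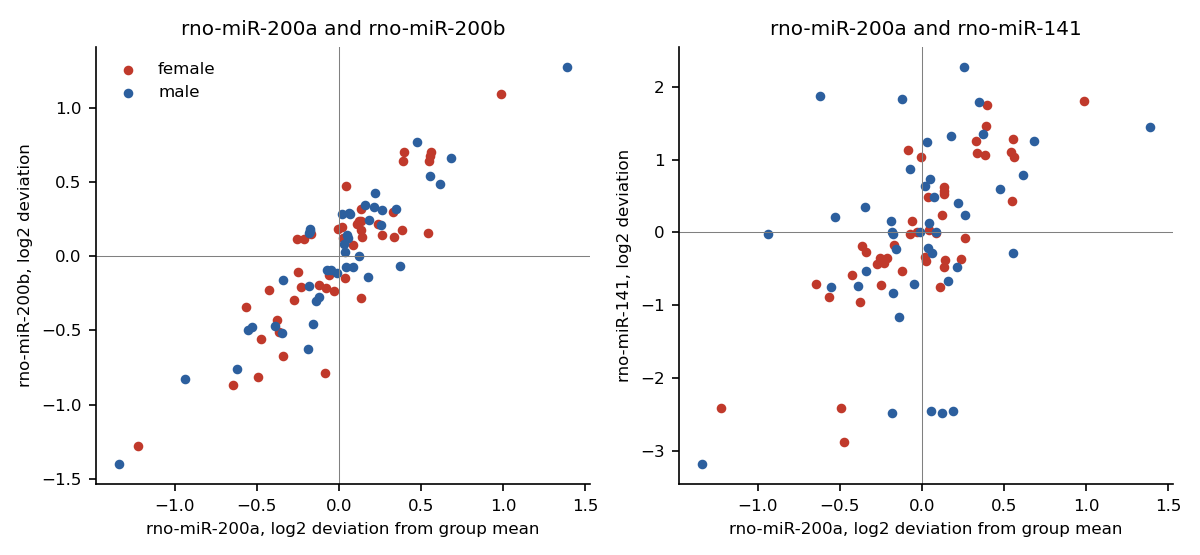
Deviation of each array from the mean of its age and sex group on the log2 scale, rno-miR-200a on the x axis of both panels against rno-miR-200b on the left and rno-miR-141 on the right, with females in red and males in blue. The points lie close to a line on the left (r = 0.89) and spread more widely on the right (r = 0.56), where the lowest points are arrays on which rno-miR-141 was undetected.

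Likeness to the members was measured over all 88 arrays. Among the 139 other miRNAs detected on at least 9 in 10 arrays, the most like rno-miR-200b were miR-181a (r = 0.65 on the log2 scale), miR-15b (0.58), miR-322 (0.56), miR-455* (0.55) and miR-466b-2* (0.50), against 0.92 for rno-miR-200a and 0.84 for rno-miR-429. Those most like rno-miR-200a were miR-181a (0.55), miR-301a (0.48), miR-455* (0.47), miR-15b (0.47) and miR-18a (0.45). For rno-miR-141 they were miR-301a (0.47), miR-328a* (0.43), miR-466b (0.36), miR-18a (0.27) and miR-219-5p (0.26), and its own family had 0.46 (rno-miR-200a), 0.31 (rno-miR-200b) and 0.31 (rno-miR-429). By Pearson r rno-miR-141 was thus no more like the first cluster than like miR-301a, the highest of the 139. Its Spearman rho was 0.42 with rno-miR-200a, 0.25 with rno-miR-200b and 0.20 with rno-miR-429, against 0.25 with miR-301a. These correlations share the arrays and their scaling and are given without a test.

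Each member was read by 2 probe sequences with 10 spots each. Over the arrays on which the member was detected, the signals of the pair correlated with r = 0.94 for rno-miR-200a, 0.96 for rno-miR-200b, 0.96 for rno-miR-429 and 0.80 for rno-miR-141 (n = 88, 88, 76 and 80). Each sequence of the first cluster was on average lower at 15 to 21 than at 5 to 6 weeks, with log2 differences of -1.71 and -1.75 for rno-miR-200b in females and -0.90 and -0.85 in males, values given without a test. Those of rno-miR-141 were lower too, with -0.97 and -0.92 in females and -0.30 and -0.15 in males, and no difference is given for rno-miR-200c, whose sequences were near background. For rno-miR-141 1 of the sequences was near background, with at least 5 of its 10 spots well above it on 3 arrays against 68 for the other.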

How the data were processed

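Liver RNA of 88 rats was measured on one-colour arrays, 1 animal on each. For each array the authors deposited scanner output (Feature Extraction 10.7.3.1), in which the total gene signal is a linear intensity with the background subtracted and 0.1 stands for undetected. The authors also deposited a table of ratio values, each signal divided by the 75th percentile of its array. Arrays of 2 design files (17 with the later one) were joined by probe name. Signals were divided by the value of rank 236 of 314 expressed miRNAs (1.84, the lowest signal, in place of undetected ones), undetected values were set to 0.012, and log2 values were tested with limma 3.58.1 in R 4.3.3 with Benjamini-Hochberg adjustment over all 314 miRNAs. A call needed an adjusted p under 0.05 and 1.5-fold (interactions: the adjusted p alone). For the members, no detected value differed by more than 0.01 percent from the deposited table. Age was tested within each sex, age classes (young, 2 weeks, adult, 5 to 21 weeks, old, 52 to 104 weeks) within each sex, and the sexes, the maturation contrast and the interactions in 1 model of 18 groups. Differences are positive where the older group or the male was higher. The procedure was tested on simulated data. Scans are runs of arrays parted by more than 8 hours (1, 13, 30, 28 and 16 arrays).

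The members, their star strands, 7 epithelial miRNAs and the 5 other miRNAs most correlated with each member detected on at least 9 in 10 arrays are named by rule. The members, the lists and the maturation contrast were chosen with earlier results of these data known. Marker lists of hepatocytes, pancreas, skeletal muscle, erythroid cells, leukocytes, endothelium, and stellate and smooth muscle cells were counted, and miR-155 of the leukocyte list was not analysed here. The normexp alternative used the median spot signals. As the labels give no litter or batch to the replicate numbers, the deviations of 103 always-detected miRNAs were correlated between arrays, with a mean of 0.0532 for shared and -0.00759 for other numbers, and the numbers were read as names alone. Alternatives were other scalings, values for undetected signals and filters, the mean processed signal, the deposited table, scan, slide or replicate number as a block, classes with ages weighted equally, the methods' t-test, and runs without single arrays or without the later design file. Leaving out arrays with pancreatic miRNAs, restricting correlations to detected arrays and the pairs with rno-miR-429 were added after the data were seen. P-values measure the spread between single animals.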

Additional observations from a re-analysis of the deposited data

Results flagged for a closer look

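A single array stood far from the other animals of its group (Dixon's ratio of the gap to the range, log2 values, groups with the member detected on every array) in 8 of 60 combinations of member and group (13.3%), where chance gives about 1 in 20. Low arrays were 5-week male 1 for rno-miR-200a (ratio 0.878, 1.18 against 1.35 for the next) and rno-miR-429 (0.877, 0.416 against 0.625), 78-week male 6 for rno-miR-200a (0.721, 0.263 against 0.699) and 15-week male 6 for rno-miR-200b (0.781, 0.514 against 0.923). High arrays were 2-week male 3 for rno-miR-200b (0.848, 1.72 against 1.22) and rno-miR-429 (0.832, 0.692 against 0.558), 5-week male 4 for rno-miR-141 (0.935, 0.368 against 0.19) and 21-week female 3 for rno-miR-141 (0.834, 0.392 against 0.142). The last of these also had miR-216a and miR-217.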

How the results depend on the processing

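The count of members called was recomputed under each alternative. With undetected values raised to the lowest detected value of their array, 5 members differed by age in females, 5 did so in males, 4 differed between young and adult females and 1 between young and adult males, and 2 passed the interaction of sex with maturation. With the 75th percentile over all 677 miRNAs, 0 members differed between young and adult females, 2 between young and adult males, 0 between adult and old males, 0 between young and old females, 0 between young and old males, and 1 in maturing males. Under it the young to adult difference of rno-miR-200a in females turned to 0.038 and the young to old difference of rno-miR-200b in males to 0.20. With the percentile over the always-detected miRNAs, 3 differed between young and adult males. Quantile normalization called 4 in young against adult females. The raw minimum put in before scaling called 4 in young against adult females and 1 in males.

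With normexp, 1 member differed between young and adult females, 0 between adult and old males, 1 between young and old females, 0 between young and old males, 1 in maturing females and 0 in maturing males, and 1 combination of member and age differed between the sexes. Its r for rno-miR-200b and rno-miR-141 was 0.19. Without the arrays of the later design file, 1 differed between young and adult females, 0 between adult and old males, 0 between young and old males, and 1 combination differed between the sexes. The mean processed signal called 1 in young against old males, ages weighted equally called 1 in adult against old females, and the scan as a block called 1 in the interaction. With single arrays left out, the counts ranged from 1 to 3 for young against adult females, from 0 to 2 for young against old males and from 2 to 5 for the combinations of member and age between the sexes. With the replicate number as a block, which pairs no animals here, 1 member differed between young and old males in place of 2, and no other count moved by over 1.5 times. The methods' t-test called 3 combinations after Benjamini-Hochberg adjustment, and at 104 weeks it called neither rno-miR-200a nor rno-miR-200b (adjusted p = 0.987).

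Of the 24 differences called for members, the scan block, the slide block, the deposited table, the filter to miRNAs detected on at least 1 in 2 arrays, the raw minimum and the percentile over always-detected miRNAs kept all 24. Without the arrays with pancreatic miRNAs 23 were kept, with the percentile over all miRNAs 12, without the later design file 17 and with normexp 7. The causes were not tested. Signals near the detection limit bound what can be said of rno-miR-200c on the 78 arrays and of rno-miR-429 on the 12 arrays without a signal.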
